A study of Mus musculus with 2 samples.

Results

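The MHC class II genes were followed across the cell types of the mouse RPE layer in 2 single-cell libraries. The 7 genes were Cd74, H2-Aa, H2-Ab1, H2-Eb1, H2-DMa, H2-DMb1 and Ciita, chosen with earlier results of these data known. They were matched by symbol, and all 7 were found among the 32285 features of the count matrices. The libraries came from wild-type C57BL/6J mice aged 3 months. In the Dox library the eyes had received 1 µl of doxorubicin at 100 ng/µl under the retina, and in the control library PBS (0 ng/µl Dox), both collected 7 days later. Each library pooled 10 eyes of 5 mice and is a single sample, so every difference between the libraries below has no replicate check, and the pools of animals cannot be told apart from the treatment. The 95% intervals cover counting error only. The tissue labelled as RPE cells was the RPE, choroid and sclera left after the retina was removed, and RPE-like cells made up 7.0% of the control cells kept and 9.65% of the Dox cells. The control library kept 20180 cells with a median of 4495 UMIs (molecules counted by their unique identifiers), the Dox library 15426 cells with a median of 4995. The 2 libraries shared 427 of the barcodes kept.

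Class II molecules present peptides taken up from outside the cell to CD4 T cells. Dendritic cells, B cells and macrophages make them constitutively or after stimulation, and many other cells make them only after interferon gamma, through the coactivator Ciita. H2-Aa and H2-Ab1 encode both chains of I-A, and H2-Eb1 encodes the beta chain of I-E, whose alpha chain is not made in mice of this strain. Cd74, the invariant chain, fills the groove until the vesicle is reached where the H2-DM heterodimer, encoded by H2-DMa and H2-DMb1, exchanges its remnant for peptide.

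H2-Aa (chromosome 17, 34282744 to 34287823, minus strand), H2-Ab1 (34257689 to 34269419, plus), H2-Eb1 (34305867 to 34316674, plus), H2-DMa (34119541 to 34139101, plus) and H2-DMb1 (34153072 to 34160230, plus) lie in the class II region of chromosome 17 in GRCm38 (GENCODE vM21). Ciita lies on chromosome 16 (10480059 to 10528418, plus), and Cd74 lies outside both. H2-DMa overlaps Brd2, H2-Eb1 overlaps Gm20513 and Ciita overlaps Dexi, each on the other strand, H2-DMa also overlaps the plus-strand feature CR974462.3 and the minus-strand CR974462.4, and how the counting treated strand is not given in the sources used here. H2-DMb1 has a close paralog, H2-DMb2, next to it, so reads shared by the pair are uncertain. RefSeq promoter windows (GRCm38.p6, 250 bases before to 50 bases after the start) matched 4 of the 7 genes. The windows below are shown because class II genes are classically read through a shared X and Y box, and because the paralogs H2-DMb1 and H2-DMb2 differed in the cells where they were counted. Capitals mark matches on either strand to AGNNACNGATG, an X box search, and to GATTGG, the core of the Y box; the searches share no bases in these windows.
H2-Aa chr17:34287774-34288073, minus strand:
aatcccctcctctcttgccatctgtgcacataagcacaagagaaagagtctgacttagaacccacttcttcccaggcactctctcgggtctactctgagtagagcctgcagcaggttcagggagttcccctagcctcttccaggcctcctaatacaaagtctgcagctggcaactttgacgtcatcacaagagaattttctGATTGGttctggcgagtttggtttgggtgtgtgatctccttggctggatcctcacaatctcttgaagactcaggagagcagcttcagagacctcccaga
H2-Eb1 chr17:34305617-34305916, plus strand:
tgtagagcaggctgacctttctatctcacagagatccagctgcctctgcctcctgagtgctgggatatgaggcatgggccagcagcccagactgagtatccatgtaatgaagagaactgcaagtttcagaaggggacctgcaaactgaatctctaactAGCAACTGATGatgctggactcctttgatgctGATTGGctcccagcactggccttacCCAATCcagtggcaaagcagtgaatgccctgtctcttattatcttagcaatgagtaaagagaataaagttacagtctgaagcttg
H2-DMb1 chr17:34152941-34153240, plus strand:
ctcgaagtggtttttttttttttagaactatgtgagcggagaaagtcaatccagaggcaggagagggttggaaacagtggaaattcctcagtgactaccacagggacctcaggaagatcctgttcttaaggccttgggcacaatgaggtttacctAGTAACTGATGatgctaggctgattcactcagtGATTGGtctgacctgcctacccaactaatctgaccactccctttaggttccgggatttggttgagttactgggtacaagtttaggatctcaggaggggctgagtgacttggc
H2-DMb2 chr17:34144999-34145298, plus strand:
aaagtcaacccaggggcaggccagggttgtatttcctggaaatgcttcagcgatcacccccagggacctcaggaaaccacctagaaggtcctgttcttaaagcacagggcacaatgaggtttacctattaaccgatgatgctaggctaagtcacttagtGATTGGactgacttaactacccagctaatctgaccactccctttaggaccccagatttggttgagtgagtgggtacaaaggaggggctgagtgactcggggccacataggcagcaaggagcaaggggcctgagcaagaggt
H2-Eb1 and H2-DMb1 held both motifs, with 21 and 22 bases between the X box and the nearest Y box match. H2-Eb1 held a further Y box match on the other strand, whereas H2-Aa and H2-DMb2 matched the Y box core alone. H2-DMa, not shown, had a window with no match and a window with the Y box core alone. Where H2-DMb1 has its X box match, the H2-DMb2 window misses the search by a single letter, so no match there is not an absent X box. The search is a fixed pattern, so no match in the H2-Aa and H2-DMa windows is not an absent X box either. Of all 32851 windows of this length, 0.968% held the X box search, 16.1% the Y box core and 0.149% both. A match is a run of letters and not a measured binding site.

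Class II RNA was concentrated in a small fraction of the cells. The 7 genes together gave 243781 UMIs in the control library and 157410 in the Dox library, or 2109 and 1586 CPM (counts-per-million, scaled to all UMIs of the cells named). Leukocyte clusters held 94.1% (94.0 to 94.1) of the control class II UMIs in 7.09% of the cells, and 93.8% (93.7 to 93.9) of the Dox class II UMIs in 5.18% of the cells. The types named as antigen-presenting, that is dendritic-, macrophage-, monocyte- and B-like cells, held 67.4% in control and 73.1% in Dox. Dendritic-like cells alone, 139 control and 99 Dox cells, held 44.9% and 58.0%. A further 26.6% and 20.7% lay in 6 leukocyte clusters left unnamed, among them a cluster with fibroblast genes, led by Igkv4-91, in which 84.8% of control and 79.8% of Dox cells had doublet scores among the highest of their library.

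Summed over the 7 genes, the level differed by orders of magnitude between cell types. In control it was 101362 CPM (100762 to 101964) in dendritic-like cells, 81103 (79994 to 82223) in a small dividing cluster led by Cdca5, 31219 in B-like cells, 28138 in Ms4a7-positive macrophage-like cells, 20380 in Lyve1-positive macrophage-like cells and 12196 in monocyte-like cells. In Dox the same cells gave 106605, 76591, 45736, 22123, 21476 and 11765 CPM. The unnamed leukocyte clusters led by Apol7c, Gsx2 and Igkv4-91 lay between 12806 and 35534 CPM. Between these levels and those of the remaining types lay the shallow Lrig1-led cluster, at 7224 and 4364 CPM, and in Dox the endothelial-like cells, at 1486 CPM. In control the remaining levels ran from 416 CPM (348 to 493) in NK-like cells to 90.3 CPM in Schwann-like cells. T- and NK-like cells, which should lack class II, gave 238 CPM (208 to 271) in control and 77.4 (57.8 to 101) in Dox. Fibroblast-like cells gave 122 and 96.7 CPM and RPE-like cells 91.9 and 64.5 CPM. RPE- and Schwann-like cells could not be separated by their intervals in control, nor could T- and NK-like from endothelial-like cells.

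**Figure D1:**
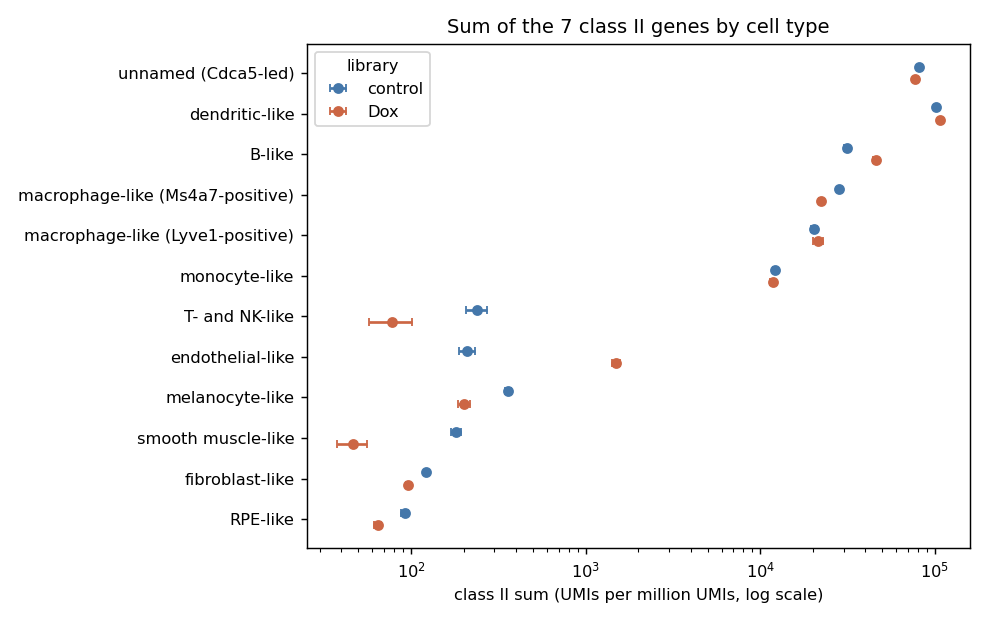
Class II sum in CPM on a log axis in each cell type, for the control and Dox libraries; points are 1 library each and bars are exact Poisson 95% intervals for counting error. Levels of dendritic-, B-, macrophage- and monocyte-like cells lie above 11765 CPM in both libraries, while T- and NK-like, fibroblast-like and RPE-like cells lie at 238 CPM or below.

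Dendritic-like cells, marked by Cd209a, Clec10a, Zbtb46 and Flt3, carried class II evenly. A median cell held 807 class II UMIs in control and 942 in Dox, with 80% of control cells between 450 and 1113, and the top 10% of cells held 15.4% and 14.8% of the UMIs. Cd74 was at 57186 CPM in control and 61149 in Dox. The chain genes H2-Aa (18125 and 18457 CPM), H2-Ab1 (9643 and 9915) and H2-Eb1 (14289 and 14966) were each detected in over 97% of these cells. H2-DMa stood at 853 and 872 CPM and H2-DMb1 at 1186 and 1181. Ciita, the coactivator, gave only 84 and 56 UMIs. It stood at 77.7 CPM (62.0 to 96.2) and 65.4 CPM (49.4 to 84.9) and was seen in 39.6% and 37.4% of the cells. Each of the 7 genes was counted in both libraries, and their Dox to control differences ran from -0.25 for Ciita to 0.10 for Cd74 on the log2 scale.

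The dividing cluster, 19 control and 14 Dox cells led by Cdca5 and Ccna2, held a median of 1155 and 1225 class II UMIs per cell. Its class II UMIs were split among the genes much as in dendritic-like cells, with Cd74 taking 53.1% and 55.9% and H2-Aa 20.1% and 18.9%. The cluster led by Apol7c and Il12b, 10 control and 7 Dox cells, differed. H2-Ab1 took 4.15% and 3.08% of its class II UMIs, against 9.51% and 9.30% in dendritic-like cells, and H2-Aa took 25.8% and 20.4%. It also held 22 and 18 UMIs of H2-Eb2, an additional beta chain gene, at 353 and 339 CPM, against 8.33 and 16.3 CPM in dendritic-like cells. With so few cells, these shares rest on single small groups in each pool.

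B-like cells gave 31219 CPM in control and 45736 in Dox, a difference of 0.55 on the log2 scale (0.48 to 0.62). All 7 control B-like cells that lacked a UMI of Cd79a and Cd79b, the B cell receptor subunits, carried Siglech, a gene of plasmacytoid dendritic cells, and no such cell was found among the 29 Dox cells. These 7 cells gave 13238 CPM and between 1 and 164 class II UMIs each. Without them the control level was 40696 CPM and the difference fell to 0.17 (0.10 to 0.24). Of the 30 control cells left, 1 still carried Siglech, with 17 UMIs, against 0 in Dox. H2-Ob forms, with H2-Oa, the H2-DM inhibitor H2-DO. Over all B-like cells H2-Ob stood at 323 CPM (225 to 449) in control and 688 (514 to 902) in Dox, from 35 and 52 UMIs. The control value includes the 7 cells without Cd79a and Cd79b, and H2-Ob was not counted without them.

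Macrophage-like cells were uneven. The Ms4a7-positive cluster, with C1q genes, Trem2 and Fabp5, held 369 control and 159 Dox cells. The class II share of a control cell's UMIs ran from 0% through a median of 0.529% to 17.2%, and that of a Dox cell from 0% through 0.248% to 13.4%. No class II UMI was found in 62 control and 34 Dox cells, and the top 10% of cells held 58.0% and 64.5% of the class II UMIs. Cells at or past a 1% share numbered 161 of 369 in control, 43.6% (38.5 to 48.9), and 55 of 159 in Dox, 34.6% (27.2 to 42.5). These intervals take the cells of each pool as units, so their overlap does not compare the treatments. Within those cells, picked by their own class II share, the level was 59845 CPM in control and 54221 in Dox. A 1% share is a point on a range, with 35 control and 17 Dox cells lying within 1.5-fold of it, and cells past it had more UMIs (median 3647 and 4588) than the rest (2260 and 2253).

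**Figure D2:**
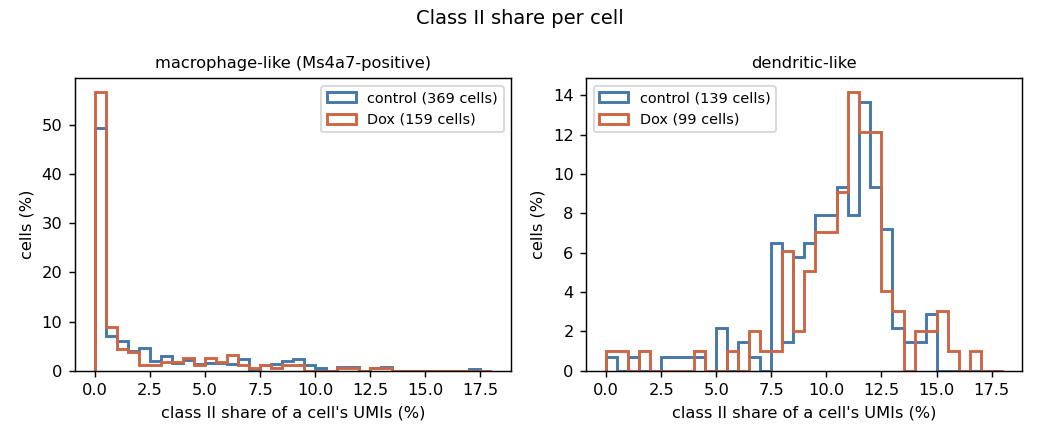
Class II share of each cell's UMIs (x, in percent) against the percent of cells (y), for Ms4a7-positive macrophage-like cells on the left and dendritic-like cells on the right, with a line for each library. The macrophage-like cells pile up near 0 with a long tail, and most dendritic-like cells lie well above the median macrophage-like share of 0.529% and 0.248%.

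The macrophage-like cells were ranked by their class II share and the highest and lowest terciles of each library compared, 123 cells each in control and 53 each in Dox. The terciles are defined by class II, so the class II levels themselves (315 against 68139 CPM in control, 166 against 56788 in Dox), and the Ciita UMIs among them (0 against 17 and 0 against 13), are given as description. Ccr2, a chemokine receptor, gave 5 UMIs in the lowest and 109 in the highest control tercile (8.69 and 180 CPM), and 0 and 55 UMIs in Dox. Dendritic-like cells also held Ccr2, at 203 CPM in control and 197 in Dox. Cd40, a receptor for T cell help, was like Ccr2 higher in the highest tercile, by 1.41 (0.72 to 2.15) on the log2 scale in control and 2.41 (0.61 to 4.83) in Dox. The intervals for Cd86, a ligand of CD28, included 0 in both libraries. The lysosomal proteases Ctss, Ctsb and Ctsl ran the other way. Ctss, which cleaves the invariant chain, was at 4874 CPM in the lowest and 2180 in the highest control tercile, and at 7139 and 1951 CPM in Dox. Ctsb was at 9060 and 3363 CPM in control and 10449 and 3813 in Dox, and Ctsl at 1414 and 301 and at 1172 and 372. Lgmn, another lysosomal protease, differed less, by -0.49 (-0.64 to -0.34) in control and -0.21 (-0.44 to 0.02) in Dox. The intervals for Ifi30, a lysosomal thiol reductase, included 0 in both libraries. Itgax was also lower in the highest tercile, with 67.8 and 36.4 CPM in control and 94.1 and 3.61 in Dox. The C1q genes did not keep one direction. C1qa was at 4102 CPM in the lowest and 3469 in the highest control tercile, but at 1216 and 3322 in Dox, and Cx3cr1 differed by 0.35 (0.01 to 0.68) in control and by 3.74 (2.64 to 5.10) in Dox. The terciles differed in depth, with medians of 2456 and 4488 UMIs in control and 2009 and 4588 in Dox, and the part of depth in these differences was not tested. Class II reached 17.2% of a cell's UMIs, and a gene's CPM in such cells is lowered by that share.

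The small Lyve1-positive cluster, also marked by Vsig4 and Folr2, held 21 control and 8 Dox cells. Its median cell had 19 and 8.5 class II UMIs, while its highest had 448 and 574. In monocyte-like cells, with Chil3 and Ace, the median cell held 12 and 11 class II UMIs. The top 10% of the monocyte-like cells held 47.6% of their class II UMIs in control and 72.3% in Dox, where 1 of 35 cells held 964 of the 2770.

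Outside the leukocytes, class II UMIs were scarce and their distribution over cells was compared with RNA that these cells should not make. RPE-like cells held a median of 1 class II UMI in control and 0 in Dox and fibroblast-like cells a median of 0 in both, and the means were 1.66 and 1.32 in RPE-like cells and 0.640 and 0.560 in fibroblast-like cells, against 788 and 923 in dendritic-like cells. Depth differed strongly, with medians of 17180 and 19870.5 UMIs in RPE-like cells. After each cell was thinned to 2000 UMIs, 10.3% of control and 7.89% of Dox RPE-like cells retained a class II UMI, below the 20.9% and 12.6% in T- and NK-like cells. T- and NK-like cells had median depths of only 3582 and 3699 UMIs and unthinned means of 0.919 and 0.313 class II UMIs. Thinning removed more from the deeper RPE-like cells, whatever the source of the RNA. The thinned order therefore cannot tell RNA made by a cell from RNA of other cells. Fibroblast-like cells gave 19.0% and 14.3%. Before thinning the shares were 51.0% and 46.0% in RPE-like, 37.8% and 32.0% in fibroblast-like, and 32.0% and 21.7% in T- and NK-like cells. Rpe65, the RPE isomerase, served as a gene whose source is known. In T- and NK-like cells it stood at 326 and 378 CPM, and in fibroblast-like cells at 203 and 285 CPM, against 4973 and 4869 CPM in RPE-like cells. The top 10% of fibroblast-like cells held 36.1% and 32.2% of their Rpe65 UMIs and 54.4% and 60.7% of their class II UMIs. In T- and NK-like cells the top 10% likewise held 34.4% and 29.1% of the Rpe65 UMIs and 76.2% and 63.5% of the class II UMIs. Class II was also sparser than Rpe65 in fibroblast-like cells, where Rpe65 had means of 1.06 and 1.65 UMIs per cell. Fewer UMIs per cell raise such a share, and this part was not tested.

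A few cells outside the leukocytes held many class II UMIs. In RPE-like cells, 7 of 1412 control cells and 3 of 1488 Dox cells held 30 or more, and these carried 47.2% and 43.4% of the RPE-like class II UMIs. Their pooled leukocyte markers, 5 genes such as Ptprc and Tyrobp, stood at 1167 and 548 CPM against 16.7 and 7.67 in the other RPE-like cells, and 4 of the 7 and 1 of the 3 had doublet scores among the highest of their library. In fibroblast-like cells 13 control and 9 Dox cells passed the same count, with leukocyte markers at 525 and 988 CPM against 43.7 and 25.5. In melanocyte-like cells 5 control cells held 56.0% of the class II UMIs, and in NK-like control cells 1 cell held 103 of 133. Without the cells at 30 or more, the RPE-like level was 48.8 CPM in control and 36.6 in Dox, and the T- and NK-like level 131 and 77.4.

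The genes did not keep one ratio outside the antigen-presenting types. UMIs are counted once per molecule from the 5' end and were not divided by gene length, so the shares below compare cell types and not genes. H2-DMb1 took 1.17% and 1.11% of the class II UMIs of dendritic-like cells, 0.805% and 0.878% in Ms4a7-positive macrophage-like cells and 2.23% and 2.27% in monocyte-like cells. In control RPE-like cells it took 18.1% (16.6 to 19.7), and in Dox 28.1% (26.1 to 30.2). Fibroblast-like cells gave 16.1% (15.3 to 16.9) and 21.2% (20.1 to 22.3). For each 1000 Cd74 UMIs there were 20.7 and 19.3 UMIs of H2-DMb1 in dendritic-like cells, 367 and 674 in RPE-like cells and 354 and 527 in fibroblast-like cells. H2-Aa did not shift in this way, with 317 and 302 per 1000 Cd74 UMIs in dendritic-like, 268 and 250 in RPE-like and 301 and 333 in fibroblast-like cells. H2-DMa lay between, at 14.9 and 14.3, 45.1 and 79.3, and 96.6 and 131 per 1000. These shares and ratios include the cells at 30 or more class II UMIs. Without them RPE-like cells held 421 control and 543 Dox UMIs of H2-DMb1, beside 508 and 335 of Cd74. Fibroblast-like cells then held 1309 and 1156 of H2-DMb1, beside 3278 and 1676 of Cd74, so the RPE-like ratios depended more on these cells. The reference cells shifted too, on few UMIs. T- and NK-like cells gave 45.8 (16.5 to 102) and 292 (106 to 698) H2-DMb1 UMIs per 1000 Cd74 UMIs, from 6 and 7 UMIs, and 45.8 and 458 of H2-DMa. Smooth muscle-like cells gave 124 and 571 of H2-DMb1, and in Dox their H2-Aa was also at 571, against 327 in control. The control values of both types include cells at 30 or more class II UMIs. Without these, control T- and NK-like cells held 5 H2-DMb1 UMIs beside 72 of Cd74, and control smooth muscle-like cells 53 beside 195. The Dox smooth muscle-like cells held 20 beside 35.

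H2-DMb1 in RPE- and fibroblast-like cells was spread over cells. No RPE-like cell held more than 5 of its UMIs in control or 10 in Dox, although Cd74 reached 200 and 371. Among RPE-like cells with no UMI of the other 6 genes, 853 in control and 1068 in Dox, H2-DMb1 stood at 16.4 CPM (14.4 to 18.7) and 16.8 (15.1 to 18.7). The corresponding fibroblast-like cells, 8670 and 7346, gave 17.9 (16.7 to 19.2) and 19.2 (17.9 to 20.6), and smooth muscle-like cells 11.4 (8.0 to 15.8) and 7.30 (3.89 to 12.5). T- and NK-like cells without the other genes held 3 H2-DMb1 UMIs in each library, which allows 0.938 to 13.3 CPM in control and 1.18 to 16.7 in Dox, so the level in RPE-like cells lay above it in control but could not be separated from it in Dox at this depth. H2-DMb2, the paralog, was at 0 UMIs in RPE-like cells of both libraries, which allows up to 0.118 and 0.0985 CPM at 3 counts, and it was 1.94% and 1.19% of the pair in fibroblast-like cells. It was 22.2% and 21.5% of the pair in dendritic-like cells, 83.9% and 81.7% in B-like cells and 3.00% and 1.35% in Ms4a7-positive macrophage-like cells.

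**Figure D3:**
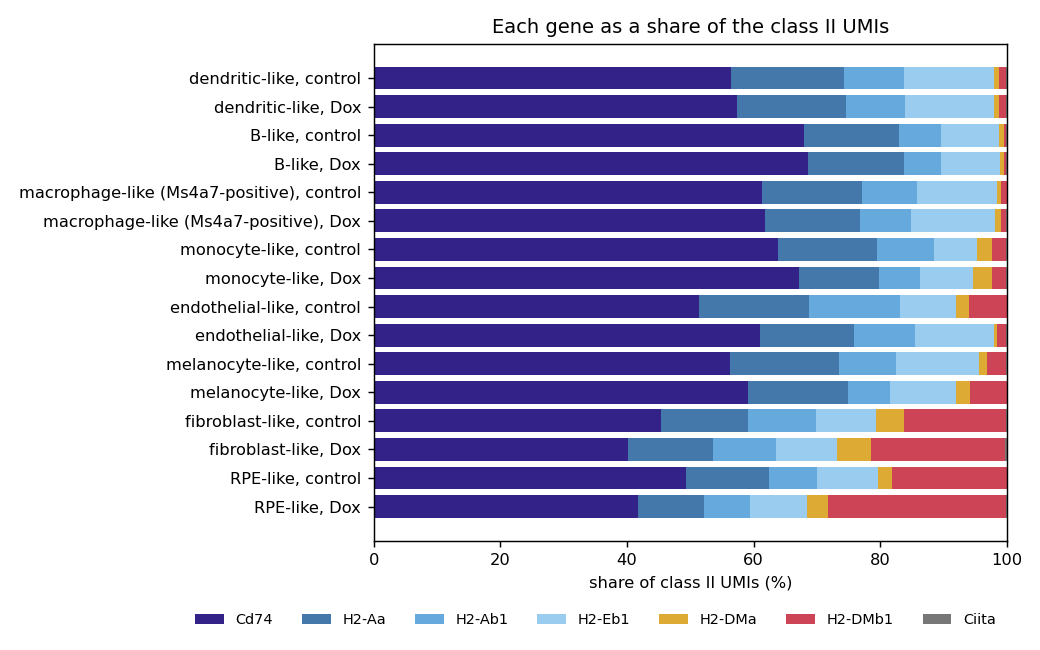
Stacked bars of each gene's share (in percent) of the class II UMIs of a cell type, with the control and Dox libraries in separate bars. The red segment, H2-DMb1, is about 1% in dendritic-like and macrophage-like cells and 16.1 to 28.1% in fibroblast-like and RPE-like cells.

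H2-Oa stood at 347 and 307 CPM and H2-Ob at 145 and 128 CPM in dendritic-like cells, whereas Ms4a7-positive macrophage-like cells held 9 and 0 UMIs of H2-Oa and 9 and 4 of H2-Ob. Lef1-positive T-like cells also held H2-Ob, with 6 control and 9 Dox UMIs (30.8 and 54.0 CPM), although the members H2-Eb1 and Cd74 gave only 4 and 7 UMIs there in control and 0 and 4 in Dox.

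Dox and control were then compared by role. A gene was counted as past the fold when it had at least 50 UMIs over both libraries and differed by 1.5-fold or more after 0.5 counts were added to each. In dendritic-like cells 0 of 7 genes passed in either direction, beside 3.47% of 3713 genes higher and 4.66% lower in Dox. In Ms4a7-positive macrophage-like cells 0 of 6 passed, beside 5.77% of 5320 genes higher and 6.99% lower. In monocyte-like cells 0 of 6 passed (5.14% and 5.81% of 1808 genes), in B-like cells 0 of 4 (11.9% and 17.3% of 486) and in fibroblast-like cells 0 of 6 (1.47% and 3.32% of 14186). In RPE-like cells 3 of 6, Cd74, H2-Aa and H2-Eb1, were lower, beside 6.27% of 12570 genes lower and 1.6% higher.

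In the dendritic-like cells the median log2 difference of the 7 genes was 0.03, against -0.01 over all genes, and the summed level differed by 0.07 (0.06 to 0.09). In the Ms4a7-positive macrophage-like cells the summed level was lower in Dox, by -0.35 (-0.37 to -0.32), and the median over the 6 genes was -0.31 against 0.00 over all genes. H2-Aa went from 4480 to 3309 CPM (log2 difference -0.44, -0.50 to -0.37), H2-Ab1 from 2417 to 1794 (-0.43, -0.52 to -0.34), H2-Eb1 from 3571 to 2933 (-0.28, -0.36 to -0.21) and Cd74 from 17237 to 13676 (-0.33, -0.37 to -0.30). The intervals of H2-DMa (191 and 198 CPM) and H2-DMb1 (226 and 194) included 0. The Lyve1-positive cluster gave 0.08 (-0.04 to 0.19) and monocyte-like cells -0.05 (-0.12 to 0.02). Both values lean on a single Dox cell, with 574 of the 821 Lyve1-positive and 964 of the 2770 monocyte-like class II UMIs. Levels without these cells were not computed, so the values do not show that these types were unchanged. Within the monocyte-like cells H2-Ab1 (1095 and 777 CPM; -0.49, -0.75 to -0.24) and H2-Aa (1895 and 1478; -0.36, -0.55 to -0.17) were lower in Dox, and Cd74 was at 7794 and 7904 CPM.

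In RPE- and fibroblast-like cells the genes of the I-A and I-E chains and Cd74 were lower in Dox, while the intervals of the H2-DM genes included 0. In RPE-like cells Cd74 went from 45.3 to 26.9 CPM (-0.75, -0.88 to -0.62), H2-Aa from 12.1 to 6.73 (-0.85, -1.11 to -0.59), H2-Ab1 from 6.90 to 4.66 (-0.57, -0.90 to -0.24) and H2-Eb1 from 8.90 to 5.84 (-0.61, -0.90 to -0.32). H2-DMb1 was at 16.6 and 18.2 CPM (0.13, -0.06 to 0.31) and H2-DMa at 2.04 and 2.13 (0.07, -0.48 to 0.62). In fibroblast-like cells Cd74 went from 55.5 to 38.9 CPM (-0.51, -0.59 to -0.44) while H2-DMb1 was at 19.7 and 20.5 (0.06, -0.05 to 0.18). Ciita gave 1 and 3 UMIs in RPE-like cells and 13 and 15 in fibroblast-like cells. The summed level was lower in Dox by -0.51 (-0.60 to -0.42) in RPE-like and by -0.34 (-0.39 to -0.29) in fibroblast-like cells, and beside it the level over all cells of the library, which is mostly that of leukocytes, was lower by -0.41 (-0.42 to -0.40). In T- and NK-like cells without the cell at 103 UMIs the difference was -0.76 (-1.26 to -0.28). Most of the 8 genes of the macrophage states list had too few UMIs in these cells. In RPE-like cells the 1 tested, Mrc1, a mannose receptor, was lower, at 2.31 and 0.427 CPM (-2.44, -3.43 to -1.56), beside 6.27% of all genes. In fibroblast-like cells the 2 tested were lower, beside 3.32% of all genes. Mrc1 was at 2.35 and 0.902 CPM (-1.38, -1.86 to -0.91) and Cx3cr1 at 0.896 and 0.354 (-1.34, -2.15 to -0.59). Of the costimulation list 1 of 3 tested was lower there, Cd86 at 0.732 and 0.248 (-1.56, -2.54 to -0.68). The part of RNA from leukocytes in the RPE- and fibroblast-like values was not tested.

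**Figure D4:**
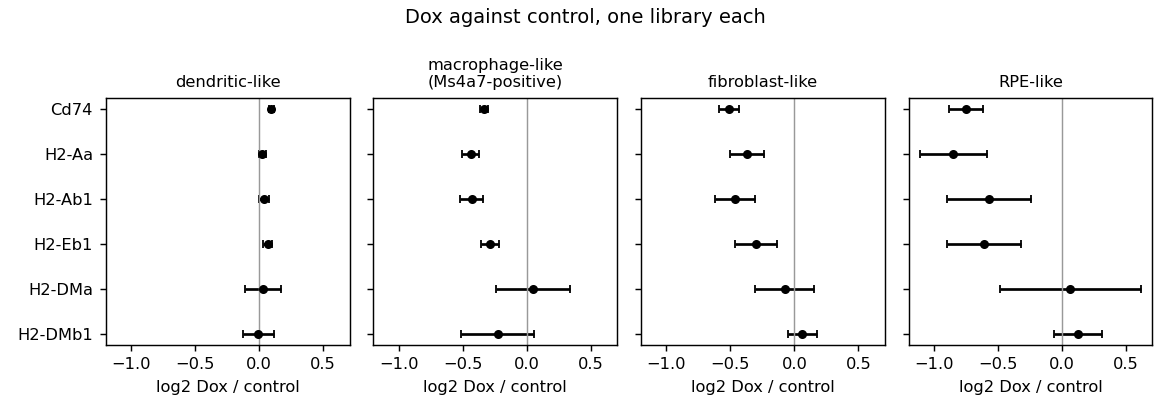
Log2 ratio of Dox to control for 6 of the genes in 4 cell types, 1 library each; bars are exact conditional binomial 95% intervals for counting error and the line marks no difference. In RPE- and fibroblast-like cells Cd74, H2-Aa, H2-Ab1 and H2-Eb1 lie left of the line and the intervals of H2-DMa and H2-DMb1 cross it.

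Endothelial-like cells went the other way, and the difference rested on few barcodes. The summed level was 210 CPM (189 to 232) in control and 1486 (1408 to 1567) in Dox, a difference of 2.83 (2.66 to 3.00), and 4 of 4 genes tested, Cd74, H2-Aa, H2-Ab1 and H2-Eb1, were past the fold, beside 4.27% of 6704 genes higher and 4.76% lower. In Dox 43 of 245 barcodes held 12 or more class II UMIs, against 3 of 426 in control, and they held 1250 of the 1375 UMIs. Apart from 1 barcode with 475, these 42 held 12 to 29 class II UMIs each. The variance over mean of their class II UMIs was 0.928, against 4.15 in the Dox barcodes under 12, though both groups were cut by this count. The depth of all 43 had a median of 2372 UMIs and quartiles of 2047 and 2660. The endothelial genes were unequally different. Plvap and Eng stood at 568 and 102 CPM in the 43 barcodes, against 5139 and 1169 in the other Dox endothelial-like barcodes. Egfl7 stood at 280 against 1827 CPM. Cldn5 was at 356 against 573 CPM and Pecam1 at 212 against 284. Pecam1 was seen in 21 of the 43 and 103 of the 202 barcodes, and Cldn5 in 24 and 115. Plvap was seen in 15 and 158, Eng in 7 and 160 and Egfl7 in 18 and 172. Lyz2, of myeloid cells, stood at 644 CPM against 54.5, Tyrobp at 322 against 24.8 and Dcn, of fibroblasts, at 3833 against 889. Lyz2 was seen in 38 of the 43 and 36 of the 202 barcodes, and Dcn in 43 and 82. Doublet scores had a median of 0.212 in the 43 and 0.131 in the others, and 4 of the 43 were among the highest of the library. Without barcodes at 12 or more, a count set after the values were seen, the level was 177 CPM (158 to 198) in control and 155 (129 to 184) in Dox, a difference of -0.19 (-0.50 to 0.11).

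**Figure D5:**
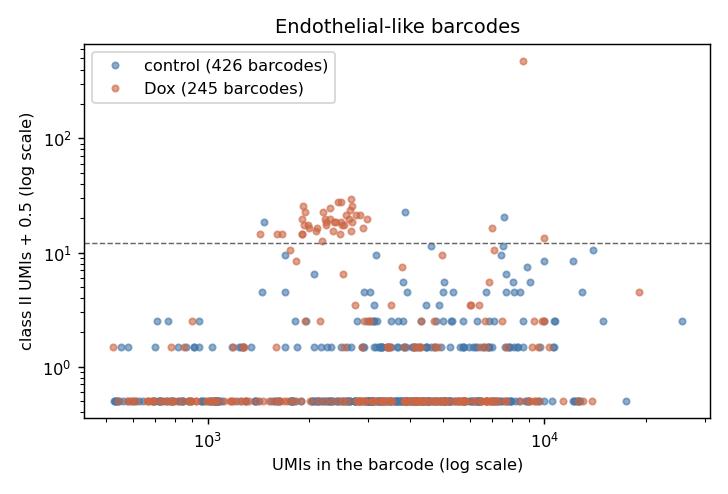
Class II UMIs plus 0.5 (y, log axis) against all UMIs (x, log axis) for each endothelial-like barcode, with control and Dox in separate colours; the dashed line separates barcodes at 12 or more. A tight group of Dox barcodes sits at 12 to 29 class II UMIs and near 2372 UMIs in all.

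Genes that act with class II were examined as groups. The DNA-binding factors of the promoter complex, Rfx5, Rfxank, Rfxap, Nfya, Nfyb, Nfyc and Creb1, were not restricted to cells with class II. Rfx5 was at 12 and 7.0 CPM in dendritic-like, 4.53 and 4.44 in fibroblast-like and 4.08 and 4.63 in RPE-like cells, and Rfxap at 16.7 and 18.7, 19.5 and 21.5, and 9.65 and 10.7 CPM. Of the 7, 2 had enough UMIs in dendritic-like cells and all 7 in fibroblast- and RPE-like cells, and 0 passed the fold in any of these types. Of the 5 genes of peptide loading, Ifi30, a lysosomal thiol reductase, was at 1384 and 1402 CPM in dendritic-like cells and 347 and 365 in Ms4a7-positive macrophage-like cells, while Ctss was at 971 and 979 and at 3649 and 4442 CPM. None of the 5 passed the fold in dendritic- or macrophage-like cells. Ctss was lower in Dox in RPE-like cells, at 8.24 and 3.12 CPM (-1.40, -1.77 to -1.04), and in fibroblast-like cells, at 19.7 and 10.7 (-0.88, -1.02 to -0.74). March1, a ubiquitin ligase of class II molecules, was the 1 of 2 turnover genes tested in dendritic-like cells. It passed the fold there, at 22.2 and 33.8 CPM, with an interval that included 0 (0.61, -0.22 to 1.45). Of the 4 costimulation genes 0 passed the fold in dendritic-like cells, and Cd40 was at 141 and 105 CPM (-0.42, -0.81 to -0.04).

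Of the interferon gamma route, Irf1 and Socs1 were higher in fibroblast-like cells, which had little class II RNA, than in dendritic-like cells. Irf1 was at 1326 and 1299 CPM in fibroblast-like cells and 143 and 118 in dendritic-like cells, and Socs1, a feedback inhibitor of the route, was at 232 and 263 against 15.7 and 7.0 CPM. In fibroblast-like cells 0 of the 7 genes passed the fold. In RPE-like cells Irf1 lay below the dendritic-like level in both libraries, at 86.7 and 56.7 CPM. It was lower there in Dox and passed the fold (-0.61, -0.70 to -0.52). In Ms4a7-positive macrophage-like cells Ifngr1, a chain of the receptor, was at 232 and 173 CPM (-0.42, -0.72 to -0.13). Of the class II ligand-binding receptors Cd4 and Lag3, both had enough UMIs in these macrophage-like cells, and Lag3 was lower in Dox (37.5 and 3.99 CPM; -3.23, -5.55 to -1.62) while Cd4 was at 40.7 and 41.2 CPM.

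Over the 48 combinations of cluster and library, the genes outside the class II family whose log2(CPM + 1) followed the class II sum most closely were Cd83 (Pearson's r 0.96), Pld4 (0.93), Ly86 (0.92), Gm6377 (0.89), Cd40 (0.88), Ifi30 (0.86), Tank (0.85), Ctss (0.85), Slamf9 (0.85) and Fgd2 (0.85), out of 12184 genes with at least 500 UMIs. Clusters of a library share its preparation and differ in depth, so these values describe the pattern. Cd83, a surface protein of activated antigen-presenting cells, was at 2673 and 2852 CPM in dendritic-like, 1917 and 1422 in Ms4a7-positive macrophage-like, 14.2 and 10.1 in fibroblast-like and 4.55 and 1.87 CPM in RPE-like cells. Each member is part of the sum, so its r is raised in advance and cannot be set beside those of the outside genes. Among the members, r was 1.0 for Cd74, 0.99 for H2-Aa, 0.96 for H2-Eb1, 0.95 for H2-Ab1, 0.88 for H2-DMb1, 0.87 for H2-DMa and 0.80 for Ciita.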

How the data were processed

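Single-cell 5' libraries (10x Genomics) of the RPE, choroid and sclera were analysed, 1 per treatment. Per the file headers, the authors counted reads with Cell Ranger 4.0.0 (the study's methods also name another version), on mm10 per the labels, and deposited filtered matrices of whole UMI counts per gene and cell, not normalized; the deposited matrices hold 20381 control cells with 117731270 UMIs and 15649 Dox cells with 103997248. Filters kept barcodes past 500 UMIs, between 200 and 6000 genes, past 0.8 for log10 genes over log10 UMIs and below 0.2 for the mitochondrial fraction. Cells were normalized and integrated with SCTransform in Seurat 5.3.0 (R 4.3.3; 3000 features, 40 components, resolution 0.1), and the 2 leukocyte clusters, 2229 cells, were clustered again (20 components, resolution 0.4), with 12 class II genes left out of both so that they defined no cluster. Clusters were named from fixed marker lists; 6 leukocyte clusters and a Snhg7os-led cluster stayed unnamed, and named types are rebuilt and may differ from the study's. The Lyve1-positive cluster was kept apart from other macrophage-like cells because a monocyte marker and no macrophage marker of the list was among its 10 leading genes. Counts were summed per cluster and library and divided by the total (CPM). With 1 library per treatment no test was possible; 95% intervals are exact Poisson for levels, Clopper-Pearson for shares and conditional binomial for ratios, and cover counting error only. A count of 0 allows up to 3 counts. Scrublet (scanpy 1.11.5) set its own threshold in control (9.62% of cells) and called no cell in Dox, so it did not work there; doublets were kept, and the cells with the highest scores, at the expected rates of 16.1% and 12.3%, were left out as an alternative. Thinning drew 2000 UMIs from each deeper cell; shallower cells were left out, which kept 1394 of 1412 control and 1470 of 1488 Dox RPE-like cells, 235 of 247 and 159 of 166 T- and NK-like cells, and 12189 of 12786 and 9384 of 9767 fibroblast-like cells. The fold calls were tried on simulated Poisson counts with larger changes than 1.5-fold and no spread between cells or pools, so this does not show how reliable the calls are here. The members and lists were chosen with earlier results of these data known. The text names the 7 members, list genes with at least 20 UMIs and the 10 genes most like the class II sum; genes of the tercile, endothelial and B-like comparisons outside the lists were chosen after their values were seen. The alternatives changed cell filters, doublets, clustering, scaling, thinning and the genes summed. One gene of the interferon gamma list is not reported here.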

Additional observations from a re-analysis of the deposited data

Results flagged for a closer look

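The class II sum moved in opposite directions between cell types of the same 2 libraries, with each interval for counting error leaving out 0. The difference between types was not tested, since each library is 1 sample. On the log2 scale, Dox over control, the sum was higher in endothelial-like (2.83), B-like (0.55) and dendritic-like cells (0.073), and lower in Ms4a7-positive macrophage-like (-0.35), fibroblast-like (-0.34), RPE-like (-0.51), melanocyte-like (-0.83) and smooth muscle-like cells (-1.97). The intervals treat UMIs as independent and leave out the spread between cells. In dendritic-like cells the variance over mean of class II UMIs per cell was 84.6 in control and 92.9 in Dox. It was 404 and 444 in Ms4a7-positive macrophage-like cells and 109.5 and 232 in RPE-like cells. The intervals are therefore too narrow, and the dendritic-like 0.073 was not shown to differ from 0. The lower macrophage-like and RPE-like values were not shown to differ from 0 either. The endothelial-like value turned to -0.19 without 43 Dox and 3 control barcodes, and the B-like value fell to 0.17 without 7 control cells. In melanocyte-like cells the value turned to 0.34 (0.19 to 0.49) without 5 control cells at 30 or more class II UMIs, and in smooth muscle-like cells it was -0.82 (-1.15 to -0.50) without 4 control cells. All melanocyte-like cells had median depths of 1233 UMIs in control and 779 in Dox. Their Rpe65, the RPE gene, was at 777 CPM in control and 1668 in Dox, so other RNA from outside also differed.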

How the results depend on the processing

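No paired analysis was possible because each group is 1 library. Values are log2 Dox over control of the class II sum. Over 10 alternatives the macrophage-like value ran from -0.37 to -0.32; in cells chosen by their own class II share it was -0.15 past 0.5%, -0.14 past 1% and -0.04 past 2%, so it moved with that choice, which uses the value compared. The dendritic-like value (0.073) was 0.054 as the mean of the cells' own CPM, 0.087 centred on the median gene and 0.041 without Cd74. The RPE-like value (-0.51) was -0.79 without the highest doublet scores, -0.31 without Cd74, -0.41 without cells at 30 or more class II UMIs, and turned to 0.12 for H2-DMa and H2-DMb1 alone. The fibroblast-like value (-0.34) was -0.46 without integration, -0.50 as the mean of the cells' own CPM, -0.40 thinned, -0.21 without Cd74, -0.46 without cells at 30 or more, and turned to 0.034 for the H2-DM genes alone. The endothelial-like value (2.83) was 2.36 without the highest doublet scores, 3.22 without integration, 3.34 thinned, 2.51 without Cd74 and turned to -0.19 without barcodes at 12 or more; the B-like value (0.55) was 0.17 with Cd79a- or Cd79b-positive cells alone. The antigen-presenting share (67.4% control, 73.1% Dox) was 80.7% and 79.2% without the highest doublet scores, 66.5% and 72.5% at leukocyte resolution 0.2, 75.7% and 79.5% thinned and 65.2% and 70.9% without Cd74, so the order of the libraries turned without the highest scores; the cause was not tested. Of the 25 values of members in dendritic-, macrophage-, fibroblast- and RPE-like cells, 0 were higher and 3 lower by 1.5-fold. Of all genes, 1.47% to 5.77% were higher and 3.32% to 6.99% lower in these types. With no minimum of UMIs 1 was higher, Ciita in RPE-like cells on 1 control and 3 Dox UMIs, and at 2-fold 0 were lower. The share of all genes at these other settings was not computed. Subtracting the T- and NK-like level left no value for RPE-, fibroblast- or endothelial-like cells, whose control level was below it. For endothelial-like cells this rested on 1 control cell with 103 class II UMIs. Without that cell the T- and NK-like level was 131 CPM, below the endothelial-like 210 CPM. The other 44 of 74 alternative values moved by less than their interval or, for counts, by less than 1.5-fold. Alternatives on the 30 UMIs, 12 UMIs, class II share, Cd79a and Cd79b, and H2-DM genes were chosen after seeing the data. Ciita had too few UMIs outside dendritic-like cells for a change to be read.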
